A study of Mus musculus with 18 samples.

Results

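Mouse chromosome 16 carries a long run of genes whose human orthologs lie on chromosome 21. The genes described here are 36 named members of that run, from Usp25 to Cbr3, and were taken as the rows of the count table that bear those symbols, 36 of 40620 rows. The RNA came from MC3T3-E1, a preosteoblast line of mouse calvaria, with 1 of 3 stably expressed short hairpin constructs. These were the control shScramble, whose libraries are labelled wild type, and shRcor2-18 and shRcor2-20, whose libraries are labelled Rcor2 knockdown. There were 2 samples for each construct at each of 0h, 24h and 7d, 18 libraries in all, to follow Rcor2 silencing during osteoblast differentiation. Osteogenic medium was growth medium with 10% serum to which dexamethasone (10 nM), beta-glycerophosphate (5 mM) and ascorbic acid (50 µg/ml) were added. The times are those of the sample titles. The protocols name 24 hours, day 14 and day 21 but not day 7, and do not say whether 0h was taken at 80% confluence or at confluency. Sample 1 of each construct at 0h was left out of every comparison, so that 15 libraries were compared and 0h held 1 library per construct, sample 2. No label says that the samples of a group are separate cultures, and the p-values therefore rest on a spread that may be technical.

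An extra copy of human chromosome 21 causes Down syndrome, and mouse models of it carry an extra copy of much of this chromosome 16 run. Its genes do not form a pathway. They include subunits of mitochondrial ATP synthase and ribosomes, enzymes that handle superoxide and carbonyl compounds, the amyloid precursor App, the calcineurin inhibitor Rcan1, and factors of splicing, chromatin and protein quality control. The labels give MC3T3-E1 cells no extra copy of the region.

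Of 36 members, 35 matched RefSeq promoter windows of 41 start sites on GRCm38.p6. Sequence just ahead of 4 starts is printed: those of N6amt1 and Eva1c, which were called against 0h, and of Mrps6 and Bach1, which were not called but whose 7d libraries did not overlap those of 0h. The Mrps6 window also stands for Slc5a3. All 4 are on the plus strand, and stretches in annotated exons were left off. Capitals mark TGANNNNGC on either strand. This is a loose pattern, with 4 free bases, for the core of the antioxidant response element that Bach1 and its partners bind.
N6amt1, chr16:87353935-87354184: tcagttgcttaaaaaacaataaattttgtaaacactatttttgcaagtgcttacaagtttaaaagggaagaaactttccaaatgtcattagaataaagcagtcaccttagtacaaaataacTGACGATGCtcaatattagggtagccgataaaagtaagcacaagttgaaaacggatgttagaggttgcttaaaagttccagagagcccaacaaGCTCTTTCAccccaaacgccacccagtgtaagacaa
Eva1c, chr16:90830609-90830858: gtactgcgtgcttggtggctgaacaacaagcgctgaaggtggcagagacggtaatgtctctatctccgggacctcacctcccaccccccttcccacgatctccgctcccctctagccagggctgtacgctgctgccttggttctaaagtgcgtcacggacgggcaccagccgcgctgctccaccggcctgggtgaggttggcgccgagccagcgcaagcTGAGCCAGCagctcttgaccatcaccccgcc
Mrps6, chr16:92058086-92058269: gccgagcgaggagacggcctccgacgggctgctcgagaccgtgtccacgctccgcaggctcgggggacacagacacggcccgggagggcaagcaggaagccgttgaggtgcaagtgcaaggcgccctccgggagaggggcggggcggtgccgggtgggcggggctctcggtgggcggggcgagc
Bach1, chr16:87698704-87698944: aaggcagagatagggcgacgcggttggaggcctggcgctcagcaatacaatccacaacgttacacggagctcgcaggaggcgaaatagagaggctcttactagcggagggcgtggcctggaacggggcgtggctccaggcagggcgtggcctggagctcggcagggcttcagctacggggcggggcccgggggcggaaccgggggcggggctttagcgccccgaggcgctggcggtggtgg
The N6amt1 window is 36.4% G and C with 4 CpG, and holds 2 matches, 1 on each strand. The windows of Eva1c, Mrps6 and Bach1 are richer, at 64.4%, 75.5% and 69.3% G and C with 17, 22 and 24 CpG. The median over the full 250 bases ahead of a start was 64.4% for the members and 52.4% for all windows. Slc5a3 starts 52 bases from Mrps6 on the same strand, and its own window differs from that of Mrps6 by a shift of 14 bases. Over whole windows of 250 bases before to 50 after the start, both strands, TGANNNNGC stood in 21 of the 41 member windows (51.2%) and in 41.3% of all 32851 windows. CCGGAAG, bound by ETS factors such as Gabpa, stood in 9 member windows (22.0%) against 8.86% of all, those of Btg3, Atp5j, Gabpa, Usp16, Cct8, Urb1, Gart, Donson and Setd4. The E-box CACGTG stood in 2 (4.88%) against 7.15%. These matches describe letters only, and neighbouring head to head genes share a part of them.

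Total counts ran from 3504808 to 6139315 in the 15 libraries compared, and the members held 0.551% to 0.605% of a library. Row names in this table fit the reads only in places. The submitters' processing notes name mm9, and the gene identifiers are of a later build, but the cause of the misfit was not tested. This was checked on rows for ribosomal, proteasome, respiratory chain, ATP synthase, chaperonin, translation initiation, RNA polymerase and mitochondrial import genes. Of 16 on chromosome 16 up to Cbr3, 15 were at or above 20 CPM (counts scaled to a library total of 1000000), against 75 of 394 elsewhere. The members Mrpl39, Atp5j, Atp5o, Mrps6 and Cct8 are among the 16, so the check rests in part on members. Past Cbr3, Hlcs was at 0 and Ets2 at 0.011 CPM, while Morc3 held 119.5 and Dyrk1a 79.3 CPM. The row named Rcor2, on another chromosome, held 202 to 242 CPM in shScramble, 201 to 231 in shRcor2-18 and 203 to 265 in shRcor2-20. Osteoblast markers lie outside the fitting stretch and could not be read by name. Of markers of other cell types on chromosome 16, endothelial Cldn5 and the leukocyte gene Cd86 had no count, adipocyte Adipoq had a mean of 0.199 CPM, smooth muscle Myh11 5.09 CPM and the leukocyte gene Cd80 187 CPM. Their part in the results was not tested. In bulk RNA, fewer cells that express a gene and less RNA per cell cannot be told apart.

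Most of the members were well expressed in these cells. Of 36, 30 averaged 20 CPM or more over the 15 libraries, 4 were tested at lower levels and 2 failed the filter on low counts. That filter passed 12930 of all 40620 rows, and 12 of 29 other chromosome 21 orthologs within the run. The share of all rows at 20 CPM or more was not computed. The members were chosen with earlier results of these data known, so their levels do not stand for the whole run. Per kilobase of annotated exon, the highest was Cct8, a subunit of the chaperonin that folds actin and tubulin, at 287 CPM/kb. Mrps6, of the small mitochondrial ribosomal subunit, followed at 162, then the splicing factor Son at 131, App at 129, and the ATP synthase subunits Atp5o at 124 and Atp5j at 113 CPM/kb. The lowest tested were the kinase gene Hunk at 3.49, the methyltransferase gene Setd4 at 3.64, the ribosome assembly gene Urb1 at 4.50 and the inositol transporter gene Slc5a3 at 5.21 CPM/kb. In CPM without regard to length, Son averaged 1453 and App 1053. Exons that overlap limit this order. A transcript annotated as Gm49711 covers 36.1% of the exon bases of Mrps6, and Atp5o shares 29.0% of its bases with a second gene annotated under the same symbol.

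Tiam1, an activator of the small GTPase Rac, had 0 counts in 13 of 15 libraries and 1 count in each of the other 2. A count of 0 allows up to 0.489 to 0.856 CPM at these depths (3 counts of the total, counting error only). Dnajc28, a J-domain protein gene, averaged 0.534 CPM. Neither was tested. Sod1, the cytosolic superoxide dismutase that most cells make in quantity, averaged only 7.23 CPM, and its longest annotated exon has 180 bases. Atp5o, whose longest exon has 178 bases, averaged 104 CPM. Whether the row named Sod1 holds that gene's reads was not tested, and its values are given with that limit.

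**Figure D1:**
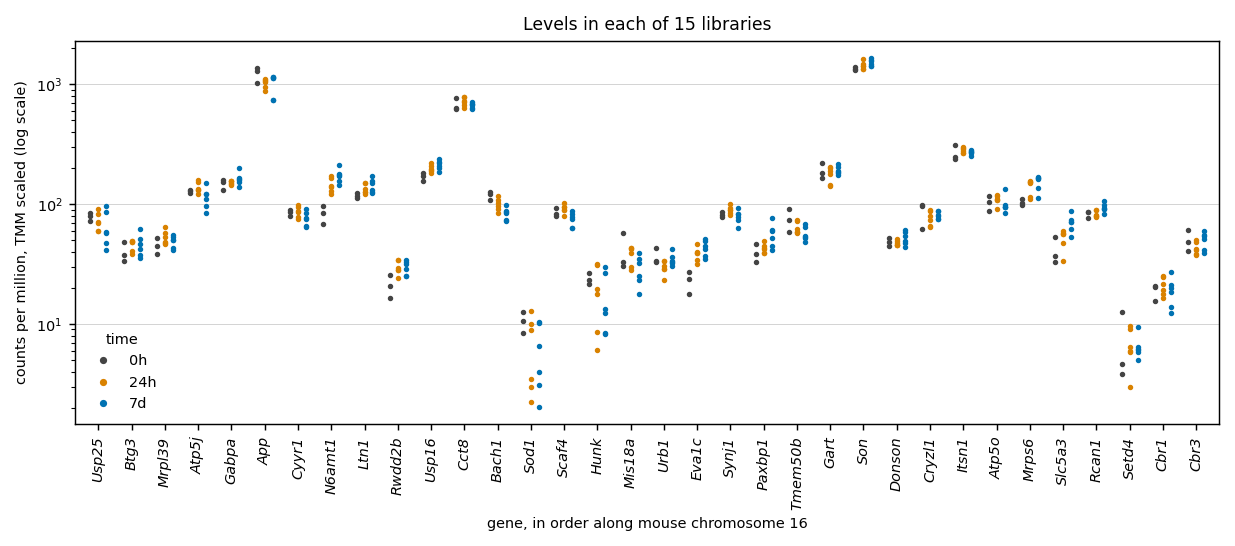
CPM of the 34 tested genes (log axis), each dot 1 of 15 libraries, coloured by time, with genes in order along chromosome 16. App, Cct8 and Son stand above the rest at 623 CPM or more in every library, and Sod1, Hunk and Setd4 spread most.

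The first question was how these genes moved when osteogenic differentiation began. At 24h, 1 of the 34 tested members rose from 0h and none fell in edgeR's quasi-likelihood test at an adjusted p under 0.05. DESeq2 called 2 members and 578 of 12930 rows. In edgeR 1.86% of all 12930 rows tested passed, 1.47% higher and 0.387% lower, so the members' share of 2.94% was near that of all rows. The gene was N6amt1 (ENSMUSG00000044442), a methyltransferase subunit that modifies a translation release factor. At 0h it stood at 68.3 CPM in shScramble, 84.2 in shRcor2-18 and 95.9 in shRcor2-20. At 24h it stood at 172 and 128 CPM in samples 1 and 2 of shScramble, 165 and 142 in shRcor2-18, and 122 and 139 in shRcor2-20. All 6 libraries at 24h lay above all 3 at 0h, with means of 145 ± 19.9 (SD, n = 6) and 82.8 ± 13.9 CPM (SD, n = 3). The log2 fold change was 0.82 ± 0.16 (SE), with an edgeR adjusted p of 0.0432. This call was close to the threshold. With a replicate block for each construct's sample number it was 0.71, at an edgeR adjusted p of 0.127, and it was lost in 12 of 15 fits that left out 1 library.

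At 7d, 2 of 34 members had risen from 0h and none had fallen, against 5.76% of all rows, 3.27% higher and 2.49% lower, beside 5.88% of the members. DESeq2 called 5 members and 1406 of 12930 rows. With the replicate block within constructs, edgeR called 5 members and 432 of 12930 rows. N6amt1 stood at 179 and 176 CPM in samples 1 and 2 of shScramble, 214 and 145 in shRcor2-18, and 171 and 156 in shRcor2-20. Every 7d library was again above every 0h library, with a mean of 173 ± 23.6 CPM (SD, n = 6). The log2 fold change was 1.08 ± 0.16 (SE), edgeR adjusted p = 0.00734.

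Eva1c (ENSMUSG00000039903), a membrane protein that binds heparin, was the other riser. It stood at 17.7, 23.7 and 27.3 CPM at 0h in shScramble, shRcor2-18 and shRcor2-20. At 24h samples 1 and 2 held 31.7 and 40.2 CPM in shScramble, 34.0 and 39.5 in shRcor2-18, and 39.0 and 46.7 in shRcor2-20. At 7d they held 37.1 and 48.9, 35.0 and 50.7, and 45.1 and 42.4 CPM in the same order. All 12 later libraries exceeded all 3 at 0h, and shScramble sample 1 and shRcor2-18 sample 1 were the lowest at both later times. The change to 24h was 0.77 ± 0.18 (log2, SE), edgeR adjusted p = 0.101, and to 7d 0.94 ± 0.19, adjusted p = 0.0245. The 7d call was lost without shScramble sample 2 at 0h (adjusted p = 0.146), shRcor2-18 sample 2 at 0h (0.0663) or shRcor2-20 sample 1 at 7d (0.0527).

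**Figure D2:**
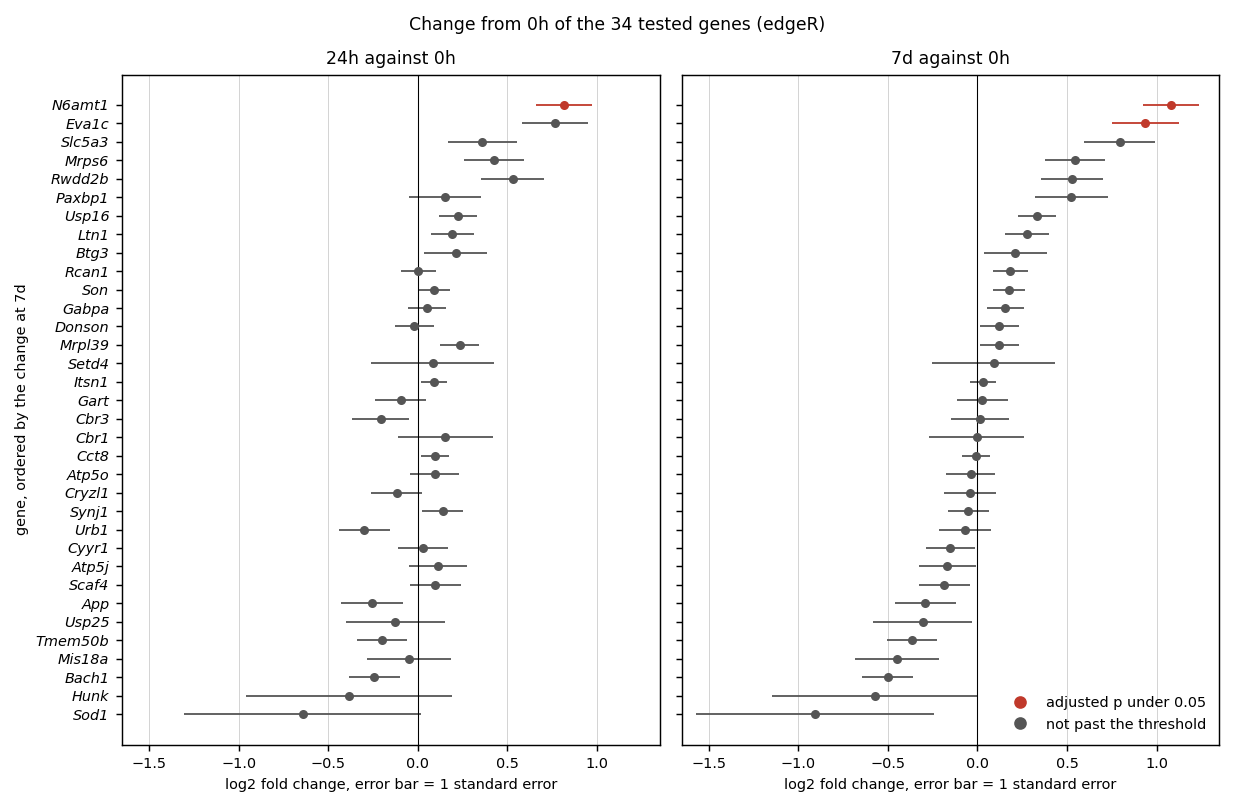
Log2 fold changes from 0h (points) with 1 standard error for the 34 tested genes, at 24h on the left and 7d on the right, red where the adjusted p was under 0.05. N6amt1 and Eva1c head both panels, and most other genes lie near 0.

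Slc5a3, the sodium-dependent transporter that brings in the osmolyte myo-inositol, missed the threshold at 7d. Its levels were 53.2, 32.6 and 37.1 CPM at 0h in shScramble, shRcor2-18 and shRcor2-20. At 7d samples 1 and 2 held 53.6 and 70.5 CPM in shScramble, 61.8 and 71.4 in shRcor2-18, and 87.5 and 74.4 in shRcor2-20. The lowest 7d library was just above the highest 0h library. The difference was 0.79 ± 0.20 (log2, SE), edgeR adjusted p = 0.0567, and 0.91 with the replicate block within constructs, adjusted p = 0.0480. Its neighbour Mrps6 went from 104 ± 6.42 CPM at 0h (SD, n = 3) to 140 ± 21.3 at 24h and 152 ± 22.2 at 7d (SD, n = 6 each), without overlap at either time. The difference at 7d was 0.54 ± 0.17, adjusted p = 0.107, and 0.67 with that block, adjusted p = 0.0305. The annotations of Mrps6 and Slc5a3 share 159 exon bases, so a part of their reads may be counted for either.

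Bach1, a repressor of heme oxygenase and other antioxidant genes, was the member whose 7d libraries all lay below those of 0h. It held 107, 122 and 126 CPM at 0h in shScramble, shRcor2-18 and shRcor2-20. At 7d samples 1 and 2 held 84.1 and 87.8 CPM in shScramble, 98.7 and 73.4 in shRcor2-18, and 85.5 and 72.4 in shRcor2-20. The difference was -0.50 ± 0.14 (log2, SE), edgeR adjusted p = 0.0859, and -0.61 with the replicate block within constructs, adjusted p = 0.0341. The other genes of oxidative stress and carbonyl reduction were not called at either time. The row named Sod1 had the lowest log2 estimate of all tested members at both, -0.64 ± 0.66 (SE) at 24h with an edgeR adjusted p of 0.824, and -0.91 ± 0.66 at 7d with 0.509. It held 8.48 to 12.6 CPM at 0h (median 10.5), 2.24 to 12.8 at 24h and 2.05 to 10.4 at 7d, so that the times overlapped. Against 0h at 7d, Cryzl1, related to quinone reductases, differed by -0.040 (log2), and the carbonyl reductases Cbr1 and Cbr3 by -0.0046 and 0.015. Cbr1 and Cbr3 are similar genes, and how reads matching both were counted is not given in the sources used here.

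**Figure D3:**
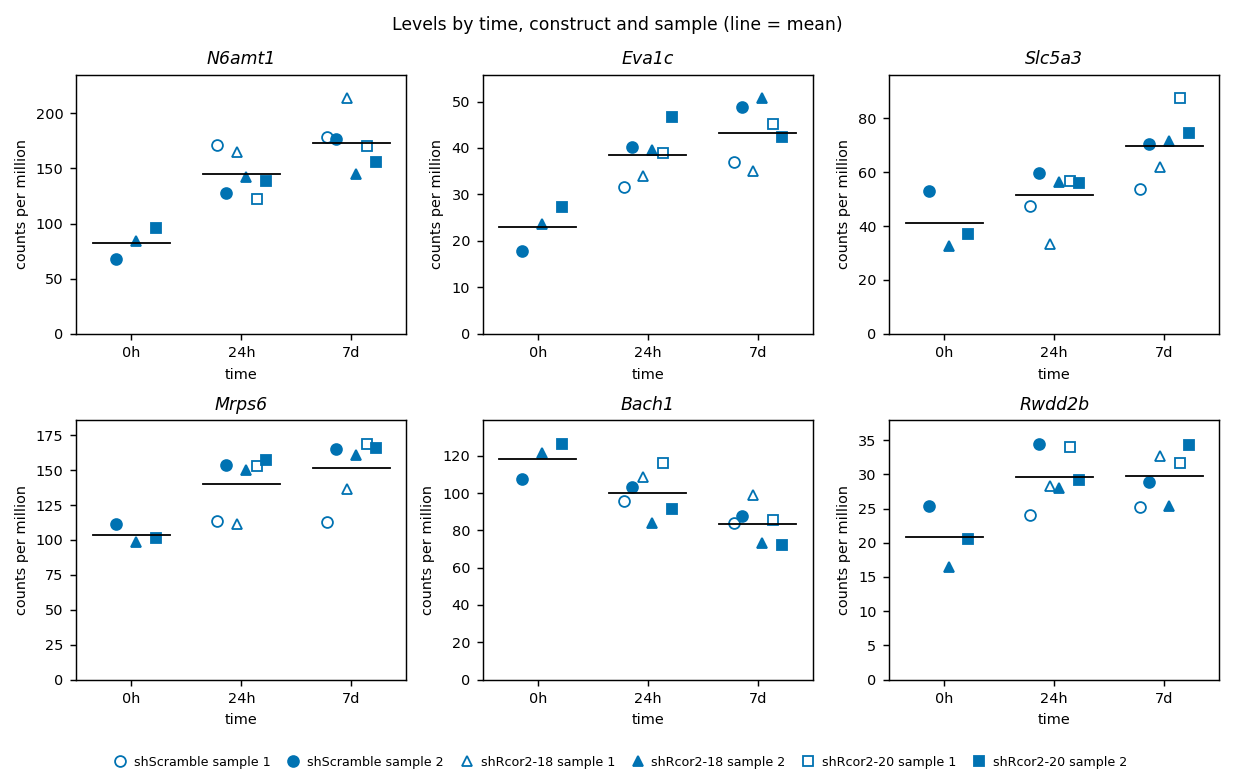
CPM by time for N6amt1, Eva1c, Slc5a3, Mrps6, Bach1 and Rwdd2b, with marker shape for the construct, open for sample 1 and filled for sample 2, and a line at the mean. The 0h libraries lie below all later ones for N6amt1 and Eva1c, and above all 7d libraries for Bach1.

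The remaining members by role showed no call against 0h. Of 5 tested mitochondrial genes, the ATP synthase subunits Atp5j and Atp5o differed at 7d by -0.17 and -0.037 (log2), the ribosomal gene Mrpl39 by 0.12, and Gabpa, which drives respiratory chain genes, by 0.16. In ubiquitin and protein quality control, Usp16, which removes ubiquitin from histone H2A, went from 170 ± 14.1 (SD, n = 3) to 213 ± 18.5 CPM at 7d (SD, n = 6), 0.33 ± 0.11 (log2, SE) with an edgeR adjusted p of 0.125. Ltn1, the ubiquitin ligase of stalled ribosomes, differed by 0.28, Usp25, another deubiquitinase, by -0.31 and Cct8 by -0.0078. Among RNA genes, Paxbp1 went from 39.1 ± 6.87 (SD, n = 3) to 55.7 ± 12.5 CPM (SD, n = 6), with the highest 7d library, shScramble sample 1, at 76.0 CPM. Son differed by 0.17, the termination factor Scaf4 by -0.18 and Urb1 by -0.069. Paxbp1 shares 28.7% of its exon bases with an antisense gene, and strand is not given for the counting.

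Membrane and traffic genes other than Eva1c and Slc5a3 lay between -0.37 (Tmem50b) and -0.051 (the lipid phosphatase Synj1), with Cyyr1 at -0.15, apart from the endocytic scaffold Itsn1 at 0.030. App differed by -0.29 ± 0.17 (log2, SE). Of the genes of chromatin, cell cycle and purine synthesis other than N6amt1, Mis18a, which loads centromeric histone, differed by -0.45 ± 0.23, and the growth suppressor Btg3 by 0.21. The replication gene Donson, Setd4 and the purine enzyme Gart lay between 0.028 and 0.12. Rcan1 differed by 0.18 and Hunk by -0.57 ± 0.57. Rwdd2b, for which no role is given, went from 20.8 ± 4.44 (SD, n = 3) to 29.7 ± 3.97 CPM at 24h and 29.7 ± 3.83 at 7d (SD, n = 6 each), 0.53 ± 0.17 at both times.

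From 0h to 24h, 3 members (Mrps6, Eva1c and N6amt1) had all libraries higher, where 4.09% of all rows did, and none had all lower (3.68% of all rows). From 0h to 7d, 7 were all higher (Son, Usp16, Mrps6, Eva1c, N6amt1, Ltn1 and Slc5a3; 7.14% of all rows) and 1 all lower (Bach1; 7.78%). At an unadjusted edgeR p under 0.05, 4 members passed at 24h and 10 at 7d, where 11.5% and 20.5% of all rows did. The median log2 change of the tested members was 0.092 at 24h and 0.021 at 7d, beside 0.059 and 0.068 for all rows. At 7d, 19 of 324 tested coding genes ahead of the run on chromosome 16 rose and 17 fell (11.1% called). Of 12 tested among 29 other chromosome 21 orthologs within the run, 2 rose and 2 fell (33.3%). Both shares were above the 5.88% of the members. The members and both lists were chosen with earlier results of these data known, so the shares are no test of a difference. The median standard error (log2) was 0.155 and 0.170 in these lists, 0.144 for the members and 0.393 for all rows.

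From 24h to 7d, DESeq2 called none of the 34 tested members and 1076 of 12930 rows. In edgeR none of these members passed, where 2.34% of all rows did. At an unadjusted p under 0.05 there were 2 (17.8% of all rows): Slc5a3 at 0.43 ± 0.16 (log2, SE) and Scaf4 at -0.28 ± 0.12. No member separated the 6 libraries of 24h from the 6 of 7d, where 2.59% of all rows were all higher at 7d and 2.42% all lower. For 26 members the 95% interval of the change lay within 1.5-fold either way. N6amt1 differed by 0.26 ± 0.12 and Eva1c by 0.17 ± 0.14 over that time, neither past the threshold.

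The study's main question was what the hairpins against Rcor2 changed. The ranges of the row named Rcor2, given before, overlapped between the constructs. Whether that row holds Rcor2 reads was not tested, so the extent of silencing cannot be read here. No member was called in edgeR with both hairpins against shScramble over all times, where 0.00773% of all rows were, and none had an unadjusted p under 0.05, where 6.49% of rows did. DESeq2 called none of them and 109 of 12930 rows. At 24h no member was called by either program (0.0155% of all rows by edgeR, 29 of 12930 by DESeq2). The same held at 7d (0.0387% by edgeR, 21 of 12930 by DESeq2). At both times 0 members had an unadjusted edgeR p under 0.05 (2.73% of all rows at 24h, 3.46% at 7d). With shRcor2-18 alone no member was called (0.101% of rows), and 1 had an unadjusted p under 0.05 (5.62% of rows), Btg3 at -0.38 ± 0.16. With shRcor2-20 alone 0 members were called (0.0387% of rows) and 0 passed unadjusted (5.52%). DESeq2 called no member in these either, where it called 73 of 12930 rows with shRcor2-18 and 70 with shRcor2-20. The 95% interval of the difference between hairpins and shScramble over all times lay within 1.5-fold for 29 of 34 members. For N6amt1 it ran from -0.19 to 0.37 (log2), for Eva1c from -0.11 to 0.56, and for App from -0.10 to 0.55. Intervals were wider for Hunk, 0.59 with bounds of -0.54 and 1.72, and for Sod1, 0.56 with bounds of -0.75 and 1.87. The change from 24h to 7d did not differ detectably from that of shScramble for any member in edgeR, with 0 called and 0 at an unadjusted p under 0.05 for shRcor2-18 (0.0928% and 3.31% of rows). For shRcor2-20, 0 were called and 1, Mrpl39, passed unadjusted (0.0541% and 3.04% of rows).

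Libraries of different constructs were often closer to each other than the samples of 1 construct. Over the 34 tested members, the library closest in level (root mean square difference of log2(CPM + 1) at the same time) was of another construct for 10 of the 12 libraries of 24h and 7d. Each library had only 1 other sample of its own construct at that time, and 2 of each of the 2 other constructs. Most closest libraries would thus be of another construct even if constructs made no difference. Libraries shScramble sample 1 and shRcor2-18 sample 1 were each other's closest at both times, 0.20 apart at 24h and 0.31 at 7d. The 2 shScramble samples were 0.47 and 0.49 apart. Hunk, a kinase of the AMPK-related family, varied by 56.4% at 24h and 56.9% at 7d (coefficient of variation), where counting error alone would give 10.7% and 12%. At 24h it held 6.08 CPM in shScramble sample 1 and 8.64 in shRcor2-18 sample 1, 17.8 in shScramble sample 2 and 19.6 in shRcor2-20 sample 1, and 31.0 and 31.8 in sample 2 of shRcor2-18 and of shRcor2-20. At 7d the same libraries by name held 8.41, 8.31, 13.5, 12.4, 29.8 and 26.8 CPM. The low, middle and high libraries were the same by construct and number at both times.

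Usp25 and App followed the same low libraries. Usp25 held 41.3 and 47.2 CPM at 7d in shScramble sample 1 and shRcor2-18 sample 1, against 56.9 to 96.0 in the other 4. App held 735 CPM in each of these libraries at 7d and 1121 to 1139 in the others. At 24h App held 882 and 949 CPM there and 1043 to 1096 elsewhere. Cbr1, a carbonyl reductase, ran the other way, at 27.3 and 21.0 CPM in these at 7d and 12.4 to 19.8 in the others. In all, 11 of 34 members had the same 2 lowest libraries at both times, and for 6 of these they were shScramble sample 1 and shRcor2-18 sample 1: Usp25, App, Hunk, Eva1c, Mrps6 and Slc5a3. The share of all rows with the same 2 lowest libraries at both times was not computed. The median coefficient of variation over the 6 libraries of a time was 11.5% at 24h and 13.6% at 7d, where counting error alone would give 5.14% and 5.71%. The comparisons of times count libraries that lie this close as separate samples.

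**Figure D4:**
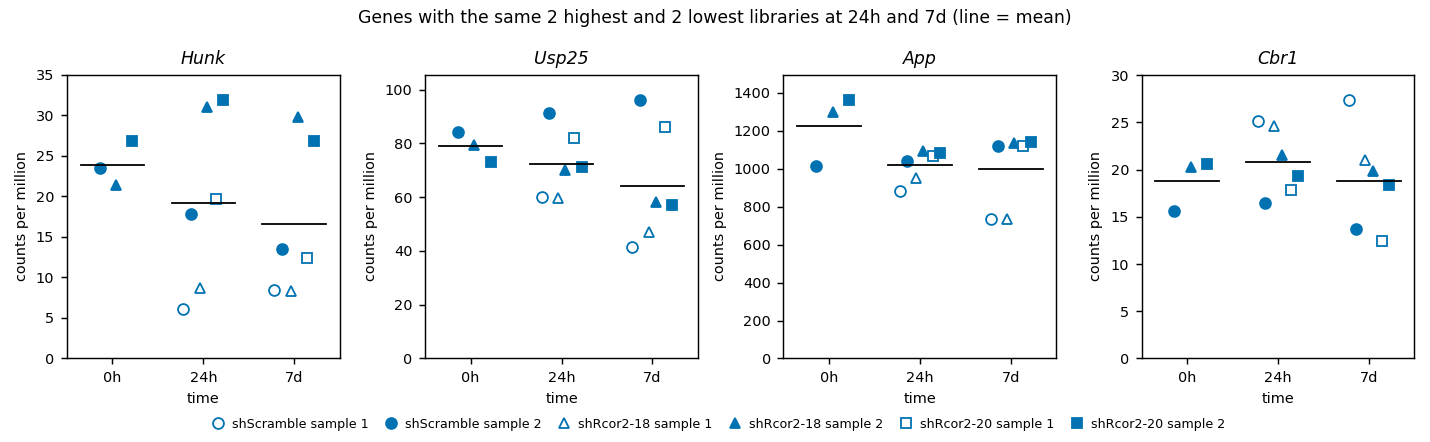
CPM of Hunk, Usp25, App and Cbr1 by time, with marker shape for the construct, open for sample 1 and filled for sample 2, and a line at the mean. The open circle and triangle (shScramble and shRcor2-18 sample 1) are the lowest for Hunk, Usp25 and App and the highest for Cbr1 at 24h and 7d.

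Several members lie close to each other in GENCODE M21, and their values stand side by side as follows. Atp5j and Gabpa start 700 bases apart on opposite strands and share 182 exon bases. They differed by -0.17 and 0.16 (log2) from 0h to 7d. Gart and Son start 554 bases apart, head to head, and differed by 0.028 and 0.17. Cryzl1 and Itsn1, 306 bases apart and head to head, differed by -0.040 and 0.030. Usp16 and Cct8 share 192 exon bases and differed by 0.33 and -0.0078. None of these differences passed the threshold.

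The 3 libraries of sample 1 at 0h that were left out stood apart. The members held 0.717% to 0.759% of their counts. In CPM without TMM scaling, 15 of the 34 tested members were above all 15 other libraries in all 3 of them, 4 were below all in all 3, and the other 15 did neither. Some of these 15 were still outside the range in a part of the libraries, as Mrps6, which held 160 to 190 CPM there and reached 163 in the others. The share of all rows outside the range in the 3 left-out libraries was not computed. Mrpl39 held 3.11 to 5.20 CPM there against 39.4 to 63.7, and Atp5j 8.37 to 10.7 against 81.6 to 161. Slc5a3 held 16.4 to 19.8 against 32.1 to 84.7, and Cct8 377 to 425 against 603 to 797 CPM. Tmem50b held 120 to 191 against 49.5 to 89.4, Bach1 233 to 287 against 70.1 to 125, and Son 2468 to 2947 against 1321 to 1695. N6amt1, at 129 to 139 CPM, and Eva1c, at 35.8 to 47.4, were above the 0h levels of sample 2 given before. At 24h these genes held 122 to 172 and 31.7 to 46.7 CPM (TMM scaled). Their 24h levels thus stood clear of 0h only without the left-out libraries. With these libraries in the fit no member was called at 24h, where edgeR called 190 of 12157 rows. At 7d it called 848 of 12157 rows. The members among them were Bach1 at -1.23 (edgeR adjusted p = 0.0336), Slc5a3 at 1.24 (0.0305) and Tmem50b. N6amt1 at 0.66 (0.0840) and Eva1c at 0.38 (0.399) were not called.

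**Figure D5:**
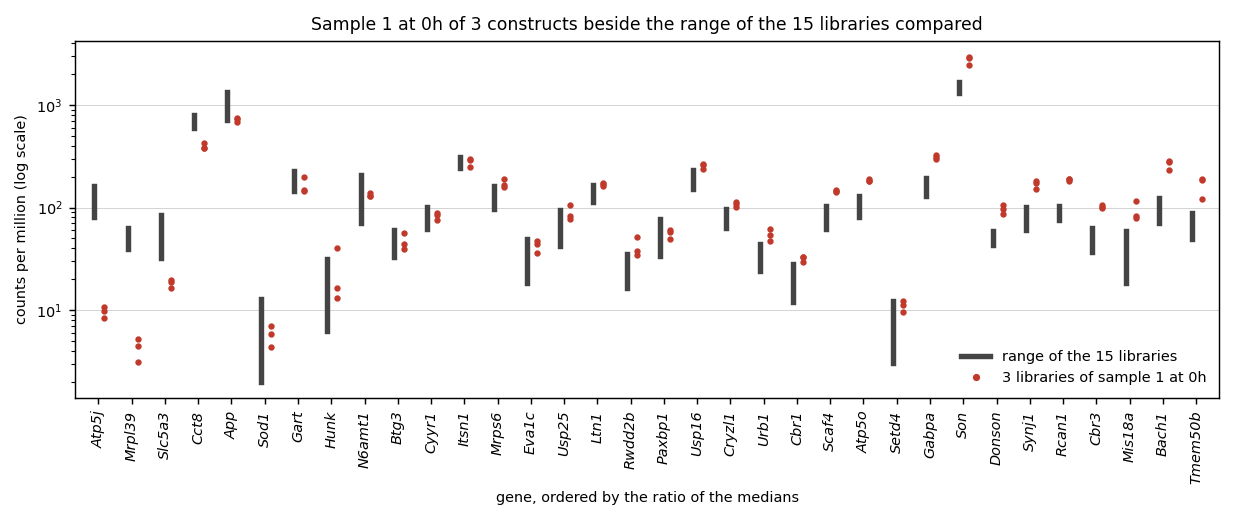
CPM (log axis, no TMM scaling) of the 34 tested genes in the 3 left-out libraries of sample 1 at 0h (red dots) beside the range of the 15 libraries compared (bars). Atp5j, Mrpl39, Slc5a3 and Cct8 lie below the bars, and 15 genes lie above them.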

How the data were processed

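The deposited file was a single table of raw counts by gene for 18 libraries, whole numbers that sum to 2572026 to 9798498 per library. Reads of 100 bp, per the labels' protocols, went through FastQC and TopHat2 2.0.9. The submitters' processing notes name these tools with DESeq, DESeq2 and the build mm9. What program counted them, with what annotation and strand setting, is not given in the sources used here. Groups came from the sample titles. No genome of that build was used, so the only coordinates printed are those of RefSeq promoter windows on GRCm38.p6. GENCODE M21 served for gene order, lengths and overlaps, and held 97.4% of the identifiers.

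The counts were tested with edgeR 4.0.16 in R 4.3.3 (filterByExpr, TMM, robust dispersions, glmQLFit and glmQLFTest) on all rows and 15 libraries, with 9 group means, 6 residual degrees of freedom and Benjamini-Hochberg adjustment over 12930 rows at 0.05. The lone library of a construct at 0h was taken to vary as libraries of other groups do. Comparisons average over constructs or times. Standard errors are the log2 change over the square root of F. CPM in the text are TMM scaled unless said otherwise. Counts were also tested with DESeq2 1.42.0. The script was tested on simulated data.

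All 36 members are accounted for: those past the threshold with full values, then those with the largest changes, then ranges. The members and lists were chosen with earlier results of these data known. The main fit used no pairing. Only in the replicate block within constructs were the libraries of 24h and 7d with the same construct and number taken as paired. Over 387 coding rows of chromosome 16 their deviations from the group means correlated at 0.46, 0.39 and 0.22. No label states this pairing. Over all 12930 rows the correlations were 0.03 to 0.06. Alternatives were other scalings, no filter, all 18 libraries, chromosome 16 rows only, replicate blocks, 24h and 7d libraries only, each library left out, and DESeq2.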

Additional observations from a re-analysis of the deposited data

Results flagged for a closer look

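A total of 68 groups of 6 libraries (34 members at 24h and 7d) were searched for a library far from the others, a search that flags about 5% of groups by chance. It found 2. Atp5o at 7d was high in shRcor2-20 sample 1, at 134 CPM, where the other 5 libraries held 83.9 to 98.1 CPM. Setd4 at 7d was high in shScramble sample 1, at 9.46 CPM, where the others held 4.99 to 6.45 CPM. In all 3 libraries of sample 1 at 0h, which no comparison used, 15 members were above all 15 libraries compared. Bach1, Tmem50b, Mis18a, Gabpa, Rcan1 and Atp5o were among them. The share of all rows that lay above in this way was not computed.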

How the results depend on the processing

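Member counts against shScramble and from 24h to 7d stayed at 0 in every alternative run. From 24h to 7d, 38 of 12157 rows were called with all 18 libraries and 60 of 387 with chromosome 16 rows only. The replicate block within constructs called 169 of 12930 and DESeq2 1076 of 12930. For both hairpins against shScramble over all times, chromosome 16 rows only called 0 of 387 and DESeq2 109 of 12930. From 0h to 24h the count of called members was 1. It became 0 with all 18 libraries (190 of 12157 rows called) and with the replicate block within constructs (56 of 12930). With chromosome 16 rows only (20 of 387) and with DESeq2 (578 of 12930) it became 2. It was 0 to 1 when 1 library was left out. N6amt1 stayed called at 24h without shRcor2-18 sample 1 or 2 at 7d or shScramble sample 2 at 24h, and lost the call without each of the other 12, with log2 changes from 0.66 to 1.00 and edgeR adjusted p from 0.0611 to 0.242. With the number shared by constructs as a replicate block (193 of 12930 rows called), the call passed from N6amt1 to Eva1c. From 0h to 7d the count of 2 became 5 with chromosome 16 rows only (85 of 387 rows called) and with DESeq2 (1406 of 12930). With the replicate block within constructs (432 of 12930) and the block shared by constructs (631 of 12930) it was also 5. In each of these fits the calls were N6amt1, Eva1c, Slc5a3, Mrps6 and Bach1, so that the count held the same genes. It was 1 to 3 when 1 library was left out: 1 in the 3 cases named for Eva1c, and 3, with Slc5a3, without sample 1 or 2 of shRcor2-18 at 24h. With all 18 libraries the log2 change reversed, none of them called, for Rwdd2b (-0.11 at 24h, -0.092 at 7d), Mrps6 at 24h (-0.032), Usp16 at 7d (-0.022) and Ltn1 at 7d (-0.035). The cause was not tested. The replicate blocks changed no other call. Rows in stretches of other chromosomes where names fit the reads were listed as an alternative and not run. With 1 library per construct at 0h and 6 residual degrees of freedom, small changes could not be seen: at 7d the 95% interval lay within 1.5-fold for 18 of 34 members.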
